A study of Mus musculus with 4 samples.

Results

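Mammalian cells use 3 enzyme families to clear reactive electrophiles and carbonyls: glutathione transferases (Gst genes), aldehyde dehydrogenases (Aldh genes) and the aldo-keto reductases of family 1 (Akr1 genes). Their members were taken by symbol, as every gene whose symbol is Gst, Aldh or Akr1 followed by the class letters and numbers of its family, among the probe sets annotated to a single gene. The rule used no expression value. It leaves out symbols of another form, such as Aldh2, and genes found only on shared probe sets. It found 50 genes on 52 probe sets, among 22180 genes on 23521 single-gene probe sets: 18 glutathione transferases, 20 aldehyde dehydrogenases and 12 aldo-keto reductases. Aldh3a2 and Aldh6a1 are each on more than 1 probe set, of which the brightest on average was used. Total RNA of 4 mouse cultures was hybridised, 1 array each. All 4 came from the strain Black6-129X1/SvJ, with male and female pooled. Both day 6 arrays hold bulk cultures of reprogrammable MEF, which are mouse embryonic fibroblasts with inducible reprogramming factors. These were treated with doxycycline and ascorbic acid and grown in embryonic stem cell medium with 20% FBS. 1 of them carried a knockdown of Firefly luciferase, an insect gene absent from mouse cells, and the other a knockdown of Sumo2, which encodes a small protein that is attached to other proteins. The other arrays hold stable iPSC (induced pluripotent stem cell) clones obtained from fibroblasts with Sumo2 knockdown, labelled hour 38 and day 10. What these times count is not stated in the labels, and no Firefly iPSC array was analysed here. In such bulk RNA, fewer cells of a type and less RNA per cell cannot be told apart.

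Glutathione transferases join the tripeptide glutathione to electrophiles such as lipid peroxidation products, and are grouped in classes (alpha, mu, pi, theta, omega, kappa) that differ in substrate. Aldehyde dehydrogenases oxidise aldehydes to acids. Some of them clear lipid aldehydes, others make retinoic acid or serve amino acid and folate metabolism. Aldo-keto reductases reduce aldehydes and ketones to alcohols, and the Akr1c branch acts on steroids. Several of these genes are known targets of NRF2, the transcription factor of the oxidative stress response, and Aldh3a1 is a known target of the aryl hydrocarbon receptor.

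Values are log2 expression, and a difference of 1 on that scale is 2-fold. A level was called measured where it reached the median of the single-gene probe sets on its array, which was 6.64, 6.67, 6.66 and 6.67 in the order Firefly, Sumo2, 38 h and 10 day; below it, a fold was counted from that median and is written as "at least". The values of each gene are given below in the same array order. Levels of different genes come from different probes and were not set against each other. Sumo2 itself read 10.65 in the Firefly culture and 10.56 in the culture labelled Sumo2 knockdown, a difference of -0.09, and 11.40 and 11.07 in the iPSC lines. The array thus showed no clear reduction of the target by which to check that label. Of 14 pluripotency markers on the array, 13 were measured and all 13 rose in the iPSC lines. Their summed level on the log2 scale was 11.32 and 12.41 at day 6 and 15.07 and 15.21 in the iPSC lines. Fibroblast markers summed to 14.93 and 14.76 at day 6 and 14.39 and 14.25 in the iPSC lines, sums in which the brightest genes weigh most. Of 14 measured fibroblast markers, 6 fell and 1 rose, while the collagen gene Col1a1, at 10.74 and 10.13 at day 6 and 10.64 and 10.38 in the iPSC lines, did not pass (adjusted p = 0.807). The part of cell types lost or gained in the differences below was not tested. Hepatocyte markers, a check on the liver-typical enzymes below, summed to between 9.46 and 9.73 on the 4 arrays, and 4 of 10 were measured.

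Glutathione transferases of several classes and a few aldehyde and aldo-keto enzymes were lower in the iPSC lines than in the day 6 cultures, and 6 genes were higher. The largest falls were in Aldh3a1 and Akr1c14, which dropped below the measuring floor in both iPSC lines. The clearest rise was in Aldh9a1. The test was limma across 12735 measured genes, iPSC against day 6 with 2 arrays a stage. Knockdown and iPSC line thus enter its spread, and the arrays of a stage are not replicates of a single condition. A gene is said to have risen or fallen at an adjusted p under 0.05 (Benjamini-Hochberg over all measured genes), and ± gives the standard error of the fitted difference with 2 arrays a stage. Of the 35 members measured, 6 rose, 12 fell and 17 did not pass. Several of these calls, among risers and fallers, did not hold with the Firefly array left out, as given by gene below. With the added condition of at least 2-fold, 3 rose (Aldh9a1, Gstp3 and Gstm3) and 9 fell (Aldh3a1, Akr1c14, Akr1c18, Aldh1a1, Gstt3, Gsto1, Gstp1, Gstm7 and Gstm2). Over all measured genes, 29.0% rose and 17.8% fell, and 14.3% rose and 9.12% fell by at least 2-fold. The median difference was -0.18 over the measured members and 0.15 over all measured genes. By sign, 21 members were lower and 14 higher, against 5341 lower and 7394 higher over all measured genes. With single arrays left out the member median was -0.08 without Firefly, -0.25 without the array labelled Sumo2 knockdown, -0.13 without 38 h and -0.26 without 10 day. Without the floor the medians were -0.16 over all 50 members and -0.06 over all genes. A member measured only at day 6 or only in the iPSC lines had to differ to be counted, which holds for Aldh3a1, Akr1c14, Akr1c18, Aldh1a1 and Aldh3b3, measured at day 6 alone, and for Gstm3, Aldh1l2 and Gstt2, measured in the iPSC lines alone, so these counts are a description. The size rule used the values as read: counted from the floor, Gstm3 and Akr1c18 are under 2-fold.

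**Figure D1:**
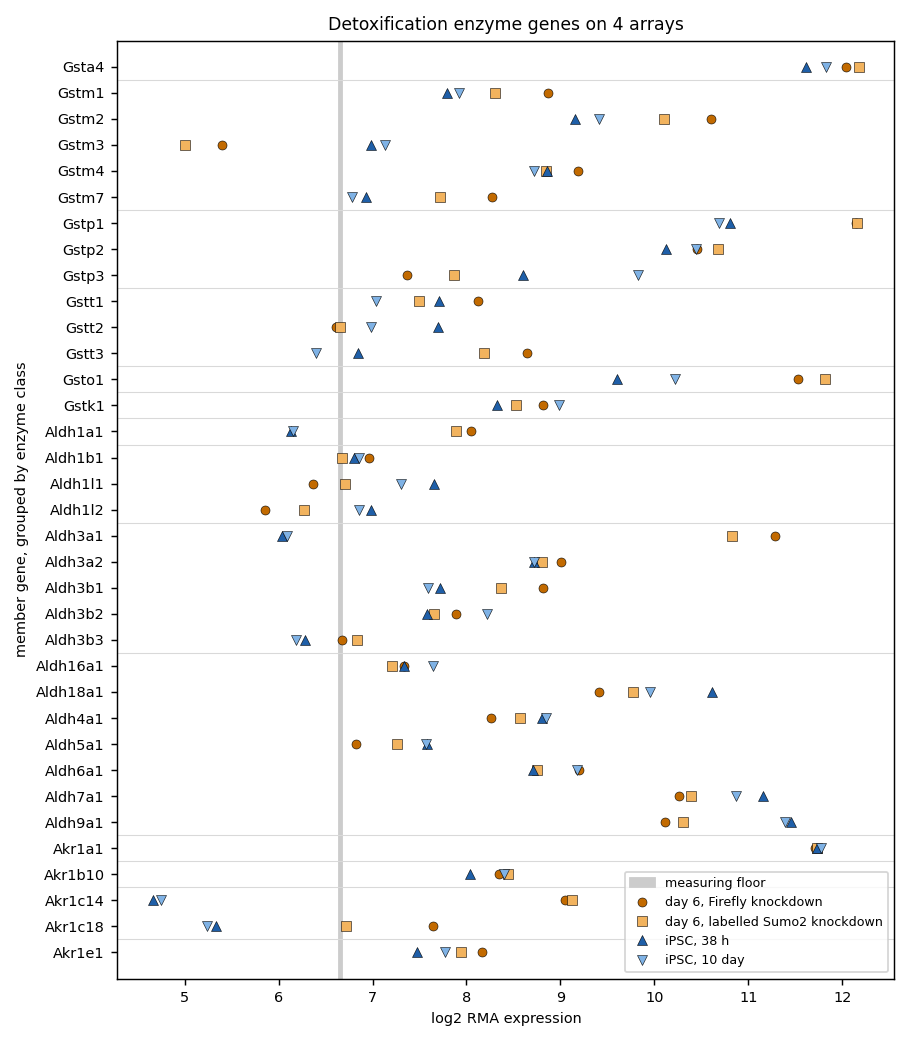
Log2 expression of the measured members on each of the 4 arrays, grouped by enzyme class, with 1 point per array and the measuring floor marked. Aldh3a1 and Akr1c14 lie at 9 or above on both day 6 arrays and below the floor on both iPSC arrays, while Akr1a1 lies between 11.71 and 11.77 on all 4.

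**Figure D2:**
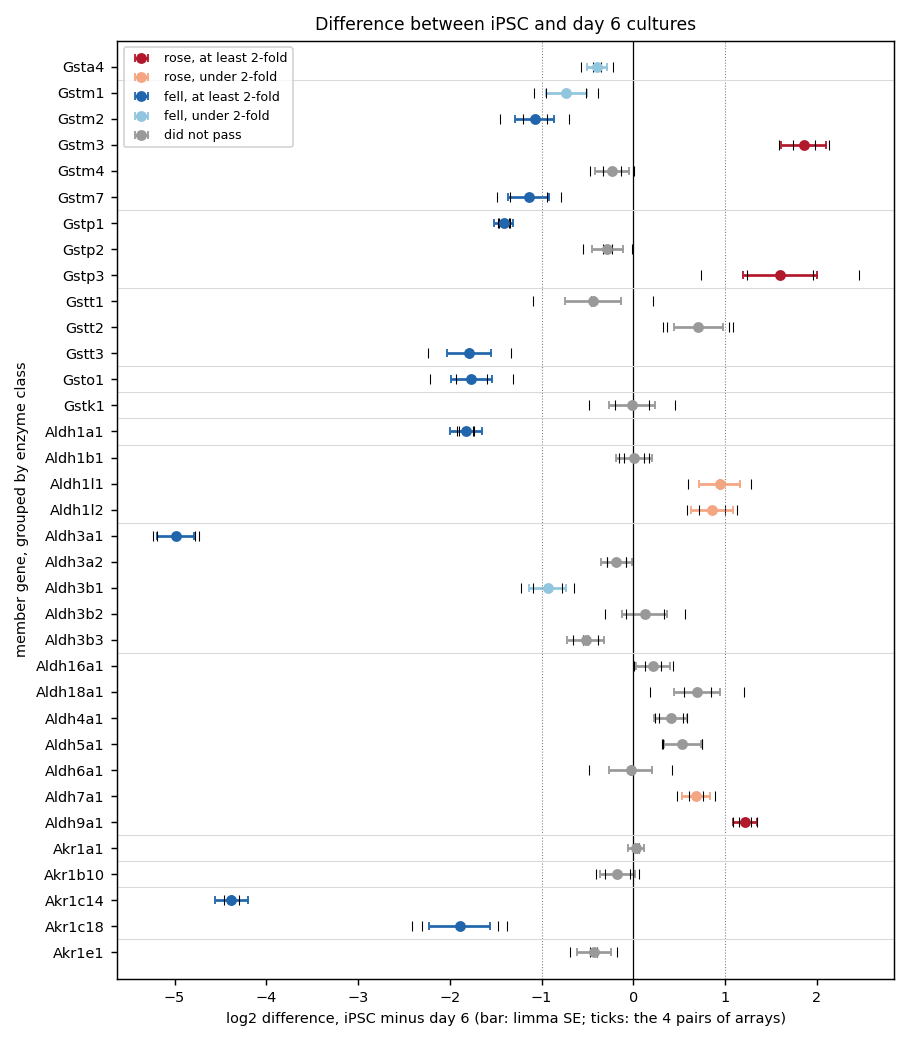
Difference iPSC minus day 6 on the log2 scale for the measured members, with the standard error of the limma fit as bars, ticks at the 4 pairs of arrays and colour for the call. Aldh3a1 (-4.99) and Akr1c14 (-4.38) stand at the low end and Gstm3 (1.86) and Gstp3 (1.60) at the high end.

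The mu-class transferases lie side by side on chromosome 3 and did not move together. Gstm2 read 10.61 and 10.11 at day 6 and 9.16 and 9.41 in the iPSC lines, and fell by 1.07 ± 0.21 on the log2 scale (adjusted p = 0.00835), which is 2.11-fold. Gstm7 read 8.27 and 7.72 at day 6 and 6.93 and 6.78 in the iPSC lines, and fell by 1.14 ± 0.23 on the log2 scale (adjusted p = 0.00836). Gstm1 read 8.87 and 8.30 at day 6 and 7.79 and 7.92 in the iPSC lines, and fell by 0.73 ± 0.22 on the log2 scale (adjusted p = 0.037), which is less than 2-fold. In each of these 3 genes both day 6 arrays lay above both iPSC arrays, with the Firefly culture the highest. Without the Firefly array the falls no longer passed, at -0.82 for Gstm2, -0.87 for Gstm7 and -0.45 for Gstm1, and Gstm1 also lost its call without either iPSC array (-0.67 without 38 h, -0.80 without 10 day). Gstm3 went the other way, at 5.40 and 5.01 at day 6 and 6.99 and 7.14 in the iPSC lines. It rose by 1.86 ± 0.24 on the log2 scale (adjusted p = 0.00208); since both day 6 values lay below the floor, the measured rise is at least 1.32-fold. Gstm4 did not pass, at 9.19 and 8.85 at day 6 and 8.86 and 8.72 in the iPSC lines (-0.23 ± 0.19, adjusted p = 0.339). The mu-class genes are near-identical in parts of their sequence, so a probe set may read RNA of a neighbour, and single-gene values of this class are uncertain to that extent.

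Pi-class transferases, which conjugate a wide range of electrophiles, also split. Gstp1 read 12.15 and 12.16 at day 6 and 10.80 and 10.68 in the iPSC lines, and fell by 1.41 ± 0.10 on the log2 scale (adjusted p = 0.000375), or 2.66-fold, and the 4 pairs of an iPSC and a day 6 array differed by -1.48 to -1.34. Gstp2 read 10.46 and 10.67 at day 6 and 10.12 and 10.44 in the iPSC lines, which did not pass (-0.28 ± 0.17, adjusted p = 0.205). Gstp3 read 7.36 and 7.87 at day 6 and 8.60 and 9.82 in the iPSC lines. It rose by 1.60 ± 0.40 on the log2 scale (adjusted p = 0.0191), or 3.03-fold, and the 4 arrays were all apart, from the Firefly culture at the bottom to the 10 day line at the top. The call was lost without the Firefly array (1.35) or without the array labelled Sumo2 knockdown (1.85), and without the 10 day array the difference was 0.99, under 2-fold. Gstp1 and Gstp2 are close copies, and their probe sets may share signal. A probe set annotated to both, left out of the test, was on average higher in the iPSC lines, by 0.23.

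Among the other transferases, Gsto1 and Gstt3 fell. Gsto1, an omega-class enzyme that reduces dehydroascorbate and mixed disulfides, read 11.53 and 11.82 at day 6 and 9.60 and 10.22 in the iPSC lines, and fell by 1.77 ± 0.22 on the log2 scale (adjusted p = 0.00186), or 3.4-fold. Its iPSC arrays both lay below both day 6 arrays, and the 10 day line was the higher of the pair. Gstt3, of the theta class, read 8.64 and 8.18 at day 6 and 6.85 and 6.40 in the iPSC lines, and fell by 1.79 ± 0.24 on the log2 scale (adjusted p = 0.00219). The 10 day value is below the floor, so its fall is at least 3.15-fold. Its neighbours on chromosome 10 did not pass: Gstt1 read 8.13 and 7.49 at day 6 and 7.70 and 7.03 in the iPSC lines (-0.44 ± 0.30, adjusted p = 0.265), and Gstt2 read 6.61 and 6.65 at day 6 and 7.70 and 6.98 in the iPSC lines (0.71 ± 0.27, adjusted p = 0.068). Gstt2 passed without the 10 day array (1.07) and stood at 0.35 without the 38 h array. Gsta4, the alpha-class enzyme that conjugates the lipid peroxidation product 4-hydroxynonenal, read 12.04 and 12.18 at day 6 and 11.61 and 11.83 in the iPSC lines. It fell by 0.39 ± 0.11 on the log2 scale (adjusted p = 0.0268), or 1.31-fold, a call that was lost without the Firefly array (-0.46), the array labelled Sumo2 knockdown (-0.33) or the 38 h array (-0.29). Gstk1, the kappa-class enzyme of mitochondria and peroxisomes, read 8.81 and 8.52 at day 6 and 8.33 and 8.98 in the iPSC lines and did not pass (-0.01 ± 0.25, adjusted p = 0.966). Of the 18 transferase members, 14 were measured, 2 rose, 7 fell and the median difference was -0.42. Over all measured genes 29.0% rose and 17.8% fell, with a median of 0.15. Probe sets of the mu and pi classes may share signal, so these counts may not be separate.

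Of 16 measured aldehyde dehydrogenases, 4 rose, 3 fell and 9 did not pass. These counts are close to the shares of 29.0% rising and 17.8% falling over all measured genes. Aldh3a1, which oxidises medium-chain and lipid-derived aldehydes and is known as an abundant protein of the cornea, showed the largest difference of any member. It read 11.28 and 10.82 at day 6 and 6.04 and 6.08 in the iPSC lines. It fell by 4.99 ± 0.20 on the log2 scale (adjusted p = 0.000105), and since both iPSC values lay below the floor the fall is at least 20.9-fold. Its neighbour on chromosome 11, Aldh3a2, which oxidises fatty aldehydes, did not pass (-0.18 ± 0.17, adjusted p = 0.389). Aldh1a1, which makes retinoic acid from retinaldehyde, read 8.05 and 7.88 at day 6 and 6.13 and 6.15 in the iPSC lines, and fell by 1.83 ± 0.18 on the log2 scale (adjusted p = 0.000789), at least 2.47-fold from the floor. The arrays of each stage lay close together for Aldh1a1, with the stages far apart. Aldh1a2 and Aldh1a3, the other retinaldehyde dehydrogenases, were below the floor on all 4 arrays. Aldh3b1 fell by 0.94 ± 0.20 on the log2 scale (adjusted p = 0.0113), from 8.81 and 8.37 at day 6 to 7.72 and 7.59, and did not pass without the Firefly array (-0.71). Aldh3b2 read 7.89 and 7.66 at day 6 and 7.58 and 8.22 in the iPSC lines and did not pass (0.13 ± 0.25, adjusted p = 0.686), and neither did Aldh3b3 (-0.52 ± 0.20, adjusted p = 0.0749).

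The aldehyde dehydrogenases that rose serve amino acid, folate and carnitine metabolism. Aldh9a1, which makes the carnitine precursor gamma-butyrobetaine from its aldehyde, read 10.11 and 10.30 at day 6 and 11.46 and 11.39 in the iPSC lines. It rose by 1.22 ± 0.13 on the log2 scale (adjusted p = 0.00107), or 2.33-fold, and both iPSC arrays lay above both day 6 arrays. Aldh7a1, an enzyme of lysine breakdown, read 10.26 and 10.39 at day 6 and 11.15 and 10.87 in the iPSC lines, and rose by 0.68 ± 0.15 on the log2 scale (adjusted p = 0.0118), or 1.61-fold. Aldh1l1 and Aldh1l2, the cytosolic and mitochondrial enzymes that remove formyl groups from folate, rose as well. Aldh1l1 read 6.36 and 6.71 at day 6 and 7.65 and 7.30 in the iPSC lines and rose by 0.94 ± 0.22 on the log2 scale (adjusted p = 0.0149). Aldh1l2 read 5.86 and 6.27 at day 6 and 6.99 and 6.86 in the iPSC lines and rose by 0.86 ± 0.23 on the log2 scale (adjusted p = 0.0231). Their folds counted from the floor are at least 1.74 and at least 1.2. Without the Firefly array, Aldh7a1 (0.62), Aldh1l1 (0.77) and Aldh1l2 (0.65) no longer passed. Aldh18a1, which makes the precursor of proline from glutamate, read 9.41 and 9.77 at day 6 and 10.61 and 9.96 in the iPSC lines and did not pass (0.70 ± 0.25, adjusted p = 0.0622), though it passed without the 10 day array (1.02). Aldh4a1, which works in proline breakdown (0.41 ± 0.18, adjusted p = 0.102), and Aldh5a1, which clears succinic semialdehyde (0.53 ± 0.20, adjusted p = 0.0701), did not pass either. Neither did Aldh6a1, an enzyme of valine breakdown (-0.03 ± 0.24, adjusted p = 0.926), or Aldh16a1 (0.22 ± 0.19, adjusted p = 0.358). Aldh1b1, a mitochondrial acetaldehyde enzyme, did not pass (0.01 ± 0.20, adjusted p = 0.979). Of 7 measured members numbered Aldh4 to Aldh18, 2 rose, none fell and 5 did not pass, with a median difference of 0.53. The risers are close to the share of 29.0% over all measured genes, of which 17.8% fell. The median over the 16 measured of the 20 aldehyde dehydrogenase members was 0.17, against 0.15 over all measured genes.

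Among the aldo-keto reductases both measured genes of the steroid-acting Akr1c branch fell. Akr1c14, a 3-alpha-hydroxysteroid dehydrogenase, read 9.05 and 9.13 at day 6 and 4.66 and 4.75 in the iPSC lines. It fell by 4.38 ± 0.18 on the log2 scale (adjusted p = 0.000105), at least 5.37-fold from the floor, and the arrays of each stage lay close together. Akr1c18, the 20-alpha-hydroxysteroid dehydrogenase that breaks down progesterone, read 7.64 and 6.71 at day 6 and 5.34 and 5.23 in the iPSC lines. It fell by 1.89 ± 0.34 on the log2 scale (adjusted p = 0.00568), at least 1.43-fold from the floor, and the day 6 arrays were unlike each other. Akr1a1, the aldehyde reductase that in mice also makes a precursor of ascorbate, read 11.71 and 11.73 at day 6 and 11.73 and 11.77 in the iPSC lines (0.03 ± 0.09, adjusted p = 0.805); the 4 values nearly coincide, and after cyclic loess its sign turned (-0.11). Akr1b10 (-0.17 ± 0.19, adjusted p = 0.469) and Akr1e1 (-0.43 ± 0.19, adjusted p = 0.099) did not pass. Of 12 aldo-keto members 5 were measured, none rose and 2 fell, with a median of -0.43. The shares over all measured genes were 29.0% rising and 17.8% falling.

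Some members that lie next to each other on the chromosome differed in direction, and others did not. Among members starting within 1 Mb of each other, the 6 mu-class genes on chromosome 3 held 2 that fell and 1 that rose by at least 2-fold, with differences from -1.14 to 1.86 among the measured ones. On chromosome 19 the group of Aldh3b1, Aldh3b3, Aldh3b2, Gstp1, Gstp2 and Gstp3 held 1 that fell and 1 that rose by at least 2-fold, from -1.41 to 1.60. On chromosome 11, Aldh3a1 at -4.99 lies beside Aldh3a2 at -0.18. The 3 measured members of the chromosome 13 group, Akr1c14, Akr1c18 and Akr1e1, were all lower, from -4.38 to -0.43, and 2 of them fell by at least 2-fold. On chromosome 10, Gstt3 fell and the measured members ran from -1.79 to 0.71. The other groups held 1 measured member each.

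**Figure D3:**
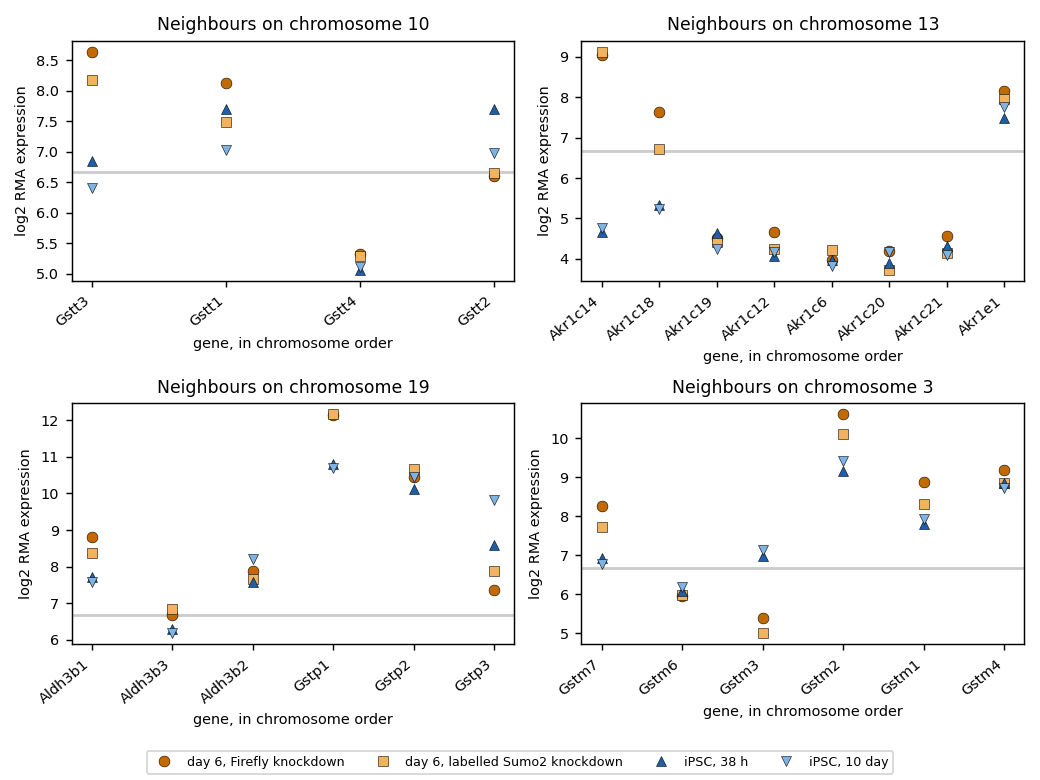
Log2 expression of neighbouring members in chromosomal order, with 1 point per array and the measuring floor marked. Groups of at least 4 members that start within 1 Mb of each other are shown, with members below the floor included. The difference iPSC minus day 6 runs from -1.14 (Gstm7) to 1.86 (Gstm3) in the mu-class group. In the group that holds the pi class it runs from -1.41 (Gstp1) to 1.60 (Gstp3).

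The 250 bases before the start of 5 members are shown because Gstp1 and Gstp3, and Gstm2 and Gstm3, are neighbours that moved in opposite directions, and Aldh9a1 is the clearest riser. They are from RefSeq for GRCm38.p6, 5′ to 3′ toward the start site. Capitals mark matches on either strand to 3 motifs: TGACNNNGC (the core of the antioxidant response element bound by NRF2), GCGTG (the core bound by the aryl hydrocarbon receptor) and TGANTCA (an AP-1 core, added to the search after the windows were seen). The region of Gstp1 is chr19:4037913-4038162 on the - strand, that of Gstp3 chr19:4059448-4059697 on the - strand, that of Gstm2 chr3:107986421-107986670 on the - strand, that of Gstm3 chr3:107969175-107969424 on the - strand and that of Aldh9a1 chr1:167349741-167349990 on the + strand.
Gstp1: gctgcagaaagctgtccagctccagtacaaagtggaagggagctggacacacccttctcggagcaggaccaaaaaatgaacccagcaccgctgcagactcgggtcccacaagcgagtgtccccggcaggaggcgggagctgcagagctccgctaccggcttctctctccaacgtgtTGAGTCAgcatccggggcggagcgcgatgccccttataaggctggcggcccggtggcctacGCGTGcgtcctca
Gstp3: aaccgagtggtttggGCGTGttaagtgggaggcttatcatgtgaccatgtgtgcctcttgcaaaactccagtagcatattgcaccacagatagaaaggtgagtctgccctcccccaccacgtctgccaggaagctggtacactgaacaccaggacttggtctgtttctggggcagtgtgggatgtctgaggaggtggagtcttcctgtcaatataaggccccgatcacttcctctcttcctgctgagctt
Gstm2: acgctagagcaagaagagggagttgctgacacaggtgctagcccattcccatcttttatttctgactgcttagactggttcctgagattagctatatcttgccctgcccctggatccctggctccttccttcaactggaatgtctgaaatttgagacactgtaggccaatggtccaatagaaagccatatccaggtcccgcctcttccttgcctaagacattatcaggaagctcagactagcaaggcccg
Gstm3: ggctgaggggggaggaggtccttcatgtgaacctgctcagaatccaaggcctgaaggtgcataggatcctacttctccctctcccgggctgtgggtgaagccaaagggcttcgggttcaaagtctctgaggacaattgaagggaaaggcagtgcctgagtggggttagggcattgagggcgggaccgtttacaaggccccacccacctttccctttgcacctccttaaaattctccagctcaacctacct
Aldh9a1: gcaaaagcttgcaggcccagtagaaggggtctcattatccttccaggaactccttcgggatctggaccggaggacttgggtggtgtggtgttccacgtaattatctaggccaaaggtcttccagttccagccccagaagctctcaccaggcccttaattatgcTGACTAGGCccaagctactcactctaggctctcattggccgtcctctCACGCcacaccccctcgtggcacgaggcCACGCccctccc

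The Gstp1 sequence holds TGANTCA 74 bases and GCGTG 13 bases before the start, and that of Gstp3 holds GCGTG 235 bases before it. The Aldh9a1 sequence holds TGACNNNGC 87 bases before the start and GCGTG, on the other strand, 40 and 12 bases before it. Those of Gstm2 and Gstm3 hold none of the 3. RefSeq windows of 250 bases before to 50 after the start were found for 42 of 50 members. Of the 12 members called at 2-fold, 11 had a window. Aldh3a1 had none and was not searched. Some have several starts, which gives 51 member windows. TGACNNNGC was in 5 of these (9.8%) and in 12.4% of 32851 windows of the same length, GCGTG in 13 (25.5%) against 32.4%, and TGANTCA in 3 (5.88%) against 7.81%. Among the other called members, Gstm7 holds TGACNNNGC 129 bases before 1 of its starts and Aldh1a1 holds TGANTCA 57 bases before 1 of its starts, while the window of the other start holds none of the motifs in either gene. Akr1c14 holds GCGTG 18 bases after its start. A match describes letters and not binding.

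Genes that work with these enzymes gave mixed counts, to be read beside the 29.0% rising and 17.8% falling over all measured genes. The lists below were chosen with earlier results of these data known. As with the members, a gene below the floor on both arrays of a stage had to differ to be counted, which holds among the genes named below for Slc7a11, Mgst1, Aox3, Aox1, Adh7, Cbr2 and Cyp2j6, measured at day 6 alone, and for Gpx6 and Sult4a1, measured in the iPSC lines alone. Of 17 measured genes of glutathione synthesis and recycling, 2 rose, 2 fell and 13 did not pass, with a median difference of 0.21. Gclc, the catalytic subunit of the rate-limiting enzyme of glutathione synthesis, rose (1.12 ± 0.21, adjusted p = 0.00731), and Chac1, which degrades glutathione, rose (1.84 ± 0.44, adjusted p = 0.0155), at least 3.13-fold from the floor. Slc7a11, the cystine importer that feeds the synthesis, fell (-2.04 ± 0.25, adjusted p = 0.00165), at least 1.07-fold from the floor, since its day 6 values were just above it. Abcc1, which exports glutathione conjugates, fell (-0.51 ± 0.17, adjusted p = 0.0446). Of 12 measured peroxidases and membrane-bound or chloride-channel-like transferases, 1 rose and 4 fell, with a median of -0.31. Mgst1, the microsomal glutathione transferase of membranes, fell by 2.25 ± 0.18 on the log2 scale (adjusted p = 0.00046), at least 4.11-fold from the floor. Mgst3 (-1.09 ± 0.20, adjusted p = 0.00641) and Gpx8 (-0.94 ± 0.20, adjusted p = 0.0111) fell too, and Gpx6 rose (1.35 ± 0.31, adjusted p = 0.0147) at least 1.26-fold from the floor.

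Of 23 measured targets and regulators of NRF2, 6 rose, 5 fell and 12 did not pass, with a median of 0.05, close to the shares of 29.0% and 17.8% over all measured genes. The epoxide hydrolase Ephx1 fell (-2.01 ± 0.27, adjusted p = 0.00232). The carbonyl reductase Cbr1 (1.21 ± 0.16, adjusted p = 0.00206), the repressor Bach1 (1.17 ± 0.19, adjusted p = 0.00443) and Taldo1, of the pentose phosphate pathway (0.98 ± 0.24, adjusted p = 0.0165), rose. Nfe2l2, which encodes NRF2, differed by 0.01 ± 0.13, adjusted p = 0.943, and its target Nqo1 by 0.05 ± 0.19, adjusted p = 0.834. Of 6 measured genes of the aryl hydrocarbon receptor list, Cyp1b1 fell (-2.84 ± 0.18, adjusted p = 0.000254) and Arnt, the partner of the receptor, rose (0.50 ± 0.13, adjusted p = 0.0196), while Ahr did not pass (0.42 ± 0.18, adjusted p = 0.0923).

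Of 16 measured other enzymes that act on carbonyls, alcohols and retinoids, 4 rose and 6 fell, with a median difference of -0.27. The aldehyde oxidase Aox3 fell by 4.07 ± 0.39 on the log2 scale (adjusted p = 0.000755), at least 5.63-fold from the floor, and Aox1 fell by 2.60 ± 0.27 on the log2 scale (adjusted p = 0.000984), at least 4.36-fold. Adh7, an alcohol dehydrogenase that acts on retinol, fell by 2.93 ± 0.24 on the log2 scale (adjusted p = 0.000498), at least 2.41-fold. The carbonyl reductase Cbr2 fell (-2.24 ± 0.20, adjusted p = 0.000607), at least 2.82-fold. Of 8 measured genes of other conjugation steps, 2 rose and 2 fell. Papss1, which makes the sulfate donor, fell (-2.37 ± 0.19, adjusted p = 0.000498), and the sulfotransferase Sult4a1 rose (2.94 ± 0.24, adjusted p = 0.000475), at least 3.97-fold. Of 14 measured cytochrome P450, cytochrome b5 (Cyb5a and its reductase Cyb5r3) and flavin monooxygenase genes, 3 rose and 5 fell, with a median of -0.13. Cyp2j6 fell by 2.19 ± 0.19 on the log2 scale (adjusted p = 0.000564), at least 2.15-fold, and Cyp2s1 rose by 2.04 ± 0.42 on the log2 scale (adjusted p = 0.00964).

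**Figure D4:**
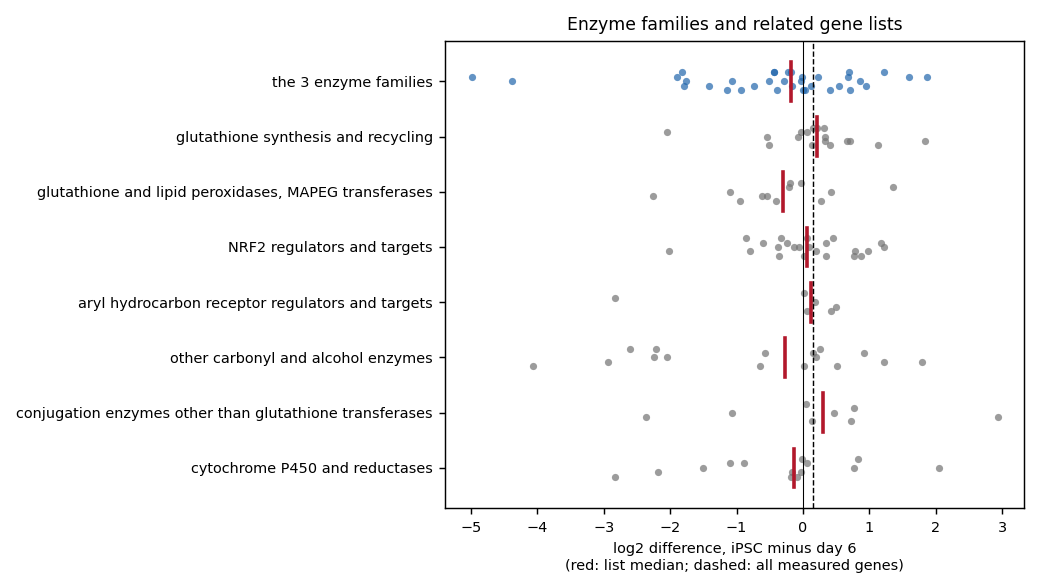
Difference iPSC minus day 6 on the log2 scale for each measured gene of the members and the related lists, with 1 point per gene and a red line at the list's median and a dashed line at the median of all measured genes. The members have a median of -0.18 and the NRF2 list of 0.05.

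At day 6, no member differed by 2-fold between the culture labelled Sumo2 knockdown and the Firefly culture. With 1 array each, this comparison has no test. Of 32 members measured, 15 were higher and 17 lower in the former, with a median of -0.15, against 0.02 over 11740 genes. The member median moved to -0.0576 with the median over probe sets and to 0.0011 with no filter. At least 1.5-fold, 2 were lower and none higher: Akr1c18, at 7.64 in the Firefly culture and 6.71 in the other (-0.93, 1.91-fold), and Gstt1, at 8.13 and 7.49 (-0.63, 1.55-fold). Over all genes 0.945% were higher and 0.23% lower by 2-fold, and 4.09% higher and 2.81% lower by 1.5-fold. All 4 measured mu-class genes were lower in the culture labelled Sumo2 knockdown, from -0.34 for Gstm4 to -0.57 for Gstm1. The 3 pi-class genes ran from 0.01 for Gstp1, nearly no difference, to 0.50 for Gstp3. By sign, 6308 of the 11740 genes were higher and 5430 lower. Probe sets of the mu and pi classes may share signal, so the genes of a class may not be separate. Aldh3a1 was lower by 1.37-fold (-0.46) and Akr1c14 differed little (0.08). In the same comparison 13 of 13 measured fibroblast markers were lower, with a median of -0.48, and pluripotency markers summed to 12.41 against 11.32. Their part in these differences was not tested.

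Between the iPSC lines, the member that differed most was Gstp3. It was 2.33-fold lower in the 38 h line (-1.22), and it was the 1 member of 30 measured to differ by 2-fold. Over 11754 genes, 1.03% were higher and 2.19% lower in the 38 h line by 2-fold, and 4.11% higher and 6.44% lower by 1.5-fold. At 1.5-fold, 3 members were higher in the 38 h line: Gstt2 (0.72, 1.64-fold), Gstt1 (0.67, 1.59-fold) and Aldh18a1 (0.65, 1.57-fold). Besides Gstp3, 3 were lower: Gstk1 (-0.65, 1.57-fold), Aldh3b2 (-0.64, 1.56-fold) and Gsto1 (-0.62, 1.54-fold). The median was -0.04 over the members and 0.02 over all genes. Gsto1 fell from day 6 to iPSC and Gstp3 rose, and in both the 10 day line was the higher. No test applies with 1 array each.

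**Figure D5:**
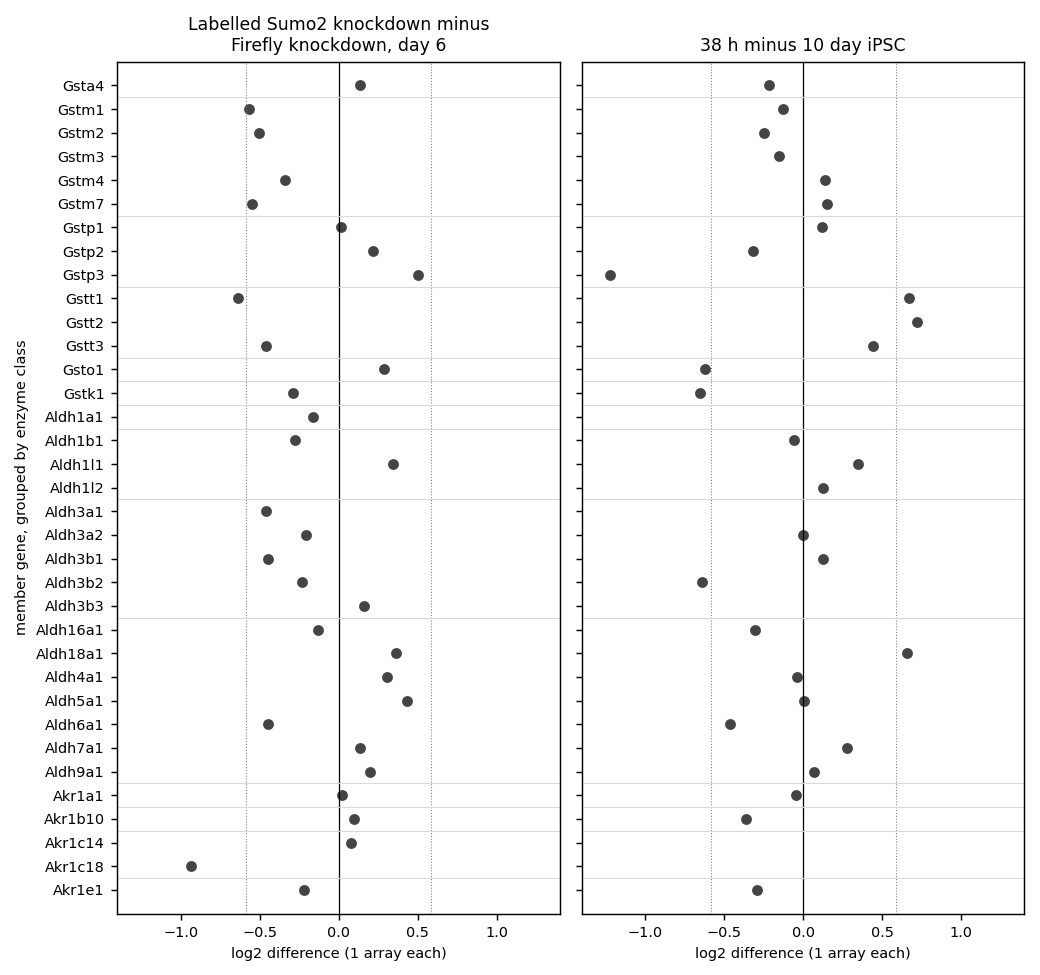
Differences between single arrays on the log2 scale for the measured members, the culture labelled Sumo2 knockdown minus the Firefly culture at day 6 and the 38 h minus the 10 day iPSC line; dotted lines mark 1.5-fold. Gstp3, at -1.22 in the iPSC pair, is the lowest there, and Akr1c18, at -0.93, at day 6.

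The other 15 members stayed below the floor on all 4 arrays, at log2 values from 3.72 to 6.56. They were Gsta3, Gstm6, Gsto2 and Gstt4 among the transferases; Aldh1a2, Aldh1a3, Aldh1a7 and Aldh8a1 among the aldehyde dehydrogenases; and Akr1b8, Akr1c6, Akr1c12, Akr1c19, Akr1c20, Akr1c21 and Akr1d1 among the aldo-keto reductases. Of the rest, 25 were above the floor on all 4 arrays. Akr1d1 and several of the Akr1c genes are known as enzymes of liver steroid metabolism.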

How the data were processed

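Expression was measured on 4 Affymetrix arrays, 1 for each condition. The submitters' processing notes name RMA and Affymetrix Expression Console, with which the authors turned the scans into the deposited log2 expression value of each probe set. Versions and settings are not given in the sources used here, and base 2 was taken from the range of the values. RMA is built to equalise the distribution of the arrays, and compresses differences of dim probe sets. The deposited distributions still differed. The upper quartile over all probe sets was 7.93 (Firefly), 7.92 (Sumo2), 8.14 (38 h) and 8.17 (10 day). Of 41345 probe sets, 23521 named 1 gene, 1814 several and 16010 none; probe sets of 1 gene were used, with the highest mean per gene. Symbols were checked against RefSeq genes of GRCm38.p6, and none of the 50 member symbols changed.

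The iPSC arrays were compared with the day 6 arrays by limma 3.58.1 in R 4.3.3 (lmFit, then eBayes with trend=TRUE, residual degrees of freedom 2). Benjamini-Hochberg adjustment was over the 12735 genes that reached the median of the arrays. The code was run on simulated data with independent noise on each array, which did not imitate stages made of unlike conditions. Single arrays were compared by size, at 2-fold and 1.5-fold. Every member is named; values on all arrays are given for members past adjusted p 0.05 and 2-fold, 1.5-fold apart in a single-array comparison or among the 8 highest, and some others. Up to 4 genes past the test are named per list, plus regulators chosen after their values were seen. Members and lists were chosen with earlier results of these data known. Alternatives were another normalization (cyclic loess), the probe set summary, the filter, the trend and leaving out each array.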

Additional observations from a re-analysis of the deposited data

How the results depend on the processing

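Of the members that rose by at least 2-fold from day 6 to iPSC, 3 were counted as reported, 2 to 5 with an array left out (5 without the 10 day array) and 6 at adjusted p with no size rule. The fallen members were 9 as reported and 7 to 11 with an array left out. With the floor at the upper quartile, 6 fell, with Akr1c18, Aldh1a1 and Gstm7 no longer counted, and 2 rose, with Gstm3 no longer counted. The median difference moved from -0.18 to -0.37 with cyclic loess, which moved the median of all genes from 0.15 to 0.03. Members minus all genes was -0.34 as reported, -0.40 after loess and -0.10 with no filter. After loess, 1478 of all genes rose and 1381 fell by at least 2-fold, against 1820 and 1161 as reported. With an array left out the member median ran from -0.26 to -0.08, the latter without Firefly. The day 6 median moved from -0.15 to -0.0576 with the median over probe sets and to 0.0011 with no filter, and the iPSC pair's from -0.04 to -0.0078 with no filter. At 1.5-fold, 2 members differed at day 6 in place of 0, and 7 between the iPSC lines in place of 1. Members that did not pass changed sign: with cyclic loess Akr1a1 (-0.11) and Aldh3b2 (-0.0091), and with an array left out Akr1b10 (-0.35 to 0.0087), Aldh1b1 (-0.13 to 0.15), Aldh3b2 (-0.19 to 0.45), Aldh6a1 (-0.26 to 0.20) and Gstk1 (-0.34 to 0.31). Besides the calls lost with an array left out, Gstm1 no longer passed with no filter and Gsta4 with no intensity trend. Aldh3b3 passed with no intensity trend (-0.52), Aldh18a1 with the floor at the upper quartile (0.70) and without the 10 day array (1.02), and Gstt2 without the 10 day array (1.07). The cause of these shifts was not tested.

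No paired analysis was possible, since each condition has 1 array. With 1 array per condition, the number of arrays limits the precision. The knockdown difference at day 6 and the line difference are counted as spread within stages. Since both iPSC lines came from fibroblasts with Sumo2 knockdown, knockdown can also enter the difference between stages. Over all genes, leaving out the Firefly array left 1336 rising and 915 falling by at least 2-fold, against 1820 and 1161 as reported. Dim probe sets have no measured level below the floor, and probe sets of near-identical genes were not told apart.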

Other observations

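A further 8 probe sets carry a gene of these families together with another gene, and were left out of every comparison above. The probe set annotated to Gstm5 and 4933431E20Rik read 9.63 and 9.31 at day 6 and 7.32 and 7.40 in the iPSC lines, a difference of -2.11. The one annotated to both Gstp1 and Gstp2 read 10.60 and 10.78 at day 6 and 10.77 and 11.05 in the iPSC lines, a difference of 0.23, where the probe set of Gstp1 alone differed by -1.41 and that of Gstp2 alone by -0.28. The probe set of Gsta1, Gsta2 and Gm3776 read 7.77 and 7.85 at day 6 and 7.44 and 7.09 in the iPSC lines. That of Gstz1, an enzyme of tyrosine breakdown, and Pomt2 read 8.58 and 8.62 at day 6 and 8.72 and 8.49 in the iPSC lines. The probe set of Aldh7a1 and Phax read 7.56 and 7.64 at day 6 and 7.40 and 7.11 in the iPSC lines, a difference of -0.34, where Aldh7a1 alone rose by 0.68. The other 3 lay below the floor on all 4 arrays. None of these was tested.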
